A study of Drosophila melanogaster with 4 samples.

Results

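The genes described here were nearly absent from the heads of control siblings and appeared mainly in replicate 2 of the heterozygous Nelf-A mutant. They were chosen by their raw read counts, with at most 30 counts in each of the 2 control libraries, at least 100 in NelfA*/+ replicate 2 and at least 3 times as many there as in NelfA*/+ replicate 1. Symbols that start with Jon or Mal- or end in Try (Jonah proteases, maltases, trypsins) were left out by the same rule. These limits were met by 34 of the 13926 genes in the count table, all of them protein-coding, and none of the 37 symbols left out by name met the other limits. The NelfA*/+ males are heterozygous for a mutant allele of Nelf-A, a subunit gene of the negative elongation factor that holds RNA polymerase II near promoters, and come from a line backcrossed to w1118. The allele is inherited and so present in all tissues. Control siblings (+/+) come from the same crosses and do not carry it. Polyadenylated RNA was taken from pools of male heads at day 50 of adult life, with 2 libraries for each genotype, called biological replicates by the study. As the rule used the counts of all 4 libraries, the levels given below describe the chosen genes and are not tested.

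Several members belong to families that build or turn over chitin and glycoprotein layers. In insects the midgut is lined by the peritrophic matrix, a sheet of chitin fibres and heavily glycosylated proteins that keeps food and microbes away from the gut cells. In Drosophila it is laid down at the cardia, also called proventriculus, where the foregut meets the midgut. Proteins with chitin-binding domains hold its fibres together, chitinases cut chitin, and mucins carry sugar chains that are started by polypeptide GalNAc transferases and extended by core 1 galactosyltransferases. This is background on the families, and the head libraries hold no measurement of where in the fly these reads came from.

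The libraries stood apart before any gene was named. Total counts on genes were between 42985746 and 45172099. Nelf-A itself (FBgn0038872; 3R, 21223704 to 21229512, forward strand) had raw counts of 3588 and 3505 in +/+ heads and of 2398 and 2294 in NelfA*/+ heads, so that the genotypes did not overlap. With a limit of at least 100 counts and at least 3 times every other library, 46 genes stood out in NelfA*/+ replicate 2 and 156 in NelfA*/+ replicate 1, against 3 in control replicate 1 and 0 in control replicate 2. Among the 8312 genes with at least 100 counts in NelfA*/+ replicate 2, 48 (0.577%) had at least 3 times the count of replicate 1. Of 18 markers of photoreceptors and brain, 16 had counts in these head libraries, while ninaA and Arr2 are listed at 0 in all 4. Among the 16, elav had only 0 and 0 counts in the controls and 8 and 6 in the NelfA*/+ libraries. A 0 in these counts may thus not mean that the RNA was absent. The summed level of the 18 markers was between 58520 and 68536 CPM, a count scaled by the total on genes of its library.

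Together the 34 genes had 280 and 256 counts in control replicates 1 and 2, 3538 in NelfA*/+ replicate 1 and 58125 in NelfA*/+ replicate 2. This was 0.135% of the counts on genes in NelfA*/+ replicate 2, 0.00783% in replicate 1 and 0.000621% and 0.000570% in the control libraries. The median member had 5 and 3.5 counts in the control libraries, 24 in NelfA*/+ replicate 1 and 840.5 in replicate 2. Most of the reads came from few genes: CG14125 and CG3906 took 47.0% of the member counts in NelfA*/+ replicate 2, and the 12 most counted members took 81.5%. In bulk samples, a larger number of cells that express a gene and more RNA per cell cannot be told apart.

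**Figure D1:**
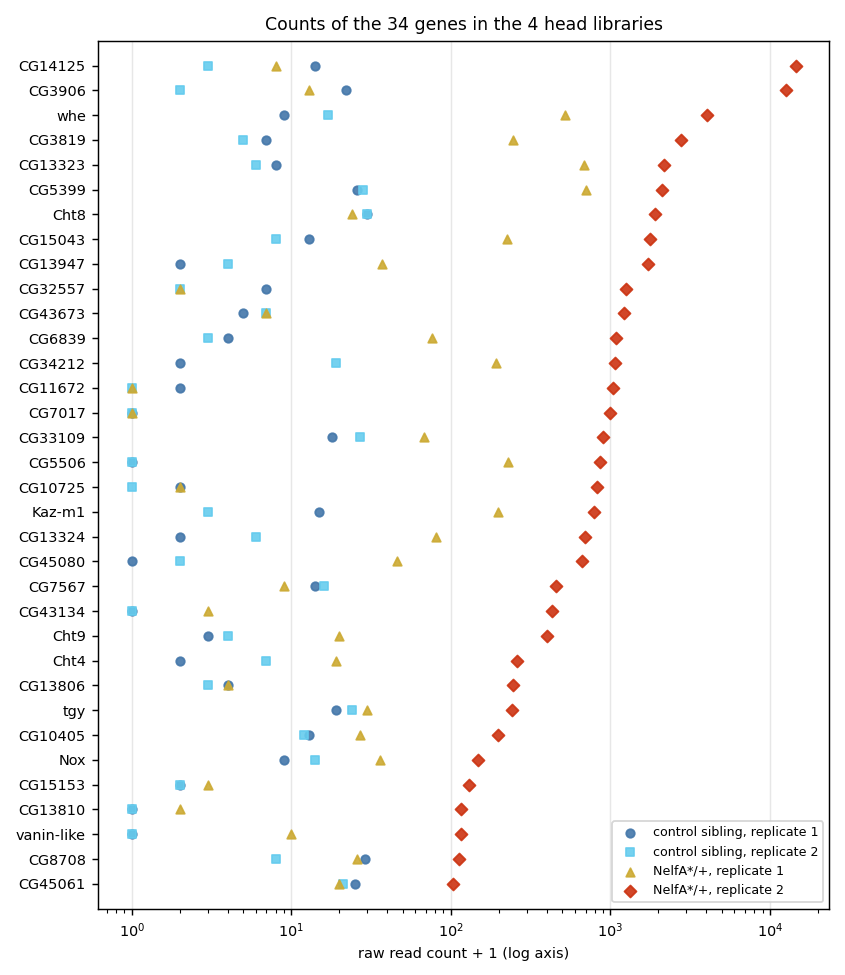
Raw read count plus 1 on a log axis for each of the 34 genes in the 4 libraries (circle and square, control siblings; triangle, NelfA*/+ replicate 1; diamond, NelfA*/+ replicate 2), 1 point per library. The diamonds run from 102 counts (CG45061) to 14622 (CG14125), while no control library is above 29 for any gene.

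Among genes of proteins with chitin-binding domains, CG14125, CG10725 and CG7017 had large gaps between the NelfA*/+ libraries. CG14125 (FBgn0036232; 3L, 11974905 to 11975810) had 13 and 2 counts in the control siblings, 7 in NelfA*/+ replicate 1 and 14622 in replicate 2, where it ranked 556 among all genes by count. CG10725 (FBgn0036362; 3L, 13437954 to 13439009) had 1 and 0 counts in the control siblings against 1 and 822 in the NelfA*/+ libraries. CG7017 (FBgn0036951; 3L, 20210292 to 20212122) was at 0 in the other 3 libraries and had 988 counts in NelfA*/+ replicate 2. All 3 genes thus stayed at the level of the controls in NelfA*/+ replicate 1. In CPM, CG14125 was 2195-fold higher in NelfA*/+ replicate 2 than in replicate 1, with a 95% interval of 1065 to 5461. CG7017 was 346-fold higher when a floor of 3 counts was put in place of its 0 in replicate 1. The lower end of its exact 95% interval is 281. Here and below, intervals are exact (Clopper-Pearson, conditional on the sum of both counts) and, like the floors, cover counting error only, while the spread between pools of flies is not in them.

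The 3 chitinase genes among the members, Cht8, Cht4 and Cht9, lie close together on 2R, Cht8 on the forward and the others on the reverse strand. Cht8 (2R, 21061646 to 21063212) had 29 and 29 counts in the control siblings, 23 in NelfA*/+ replicate 1 and 1910 in replicate 2. Cht9 (2R, 21067992 to 21069286) had 2 and 3 counts in the control siblings against 19 and 403 in the NelfA*/+ libraries, and Cht4 (2R, 21065379 to 21067087) had 1 and 6 against 18 and 259. The gaps between the genes are 2167 bases from Cht8 to Cht4 and 905 bases from Cht4 to Cht9. Cht8 overlaps Cht12 on the opposite strand, and Cht12 had between 1 and 13 counts in the 4 libraries. Of the 10 numbered chitinase genes in the table, the 6 others (Cht2, Cht5, Cht6, Cht7, Cht10 and Cht11) had between 98 and 511 counts in every library. Cht5 had the widest gap of these between the NelfA*/+ libraries, with 339 and 511. Over the genotypes, edgeR's quasi-likelihood test called 0 of the 9 chitinase genes tested, members included, while 3 had an unadjusted p below 0.05 and DESeq2 called 2 (Wald test). Those 3 are the members Cht8, Cht4 and Cht9, which the rule chose on this contrast, so nothing is read from them. Over all 9609 genes tested, edgeR called 180, 1954 had an unadjusted p below 0.05 and DESeq2 called 833. The chitinases and the other families named here were taken by symbol or RefSeq synonym after the counts of the members had been seen.

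Enzymes that build mucin-type sugar chains formed a smaller group. tgy (X, 19125003 to 19127316) and CG8708 (2R, 8159406 to 8161565) are named as core 1 galactosyltransferases by their RefSeq synonyms dC1GalT5 and dC1GalT2. tgy had 18 and 23 counts in the control siblings against 29 and 240 in the NelfA*/+ libraries, an 8.70-fold difference in CPM between the latter (95% interval, 5.90 to 13.3). CG8708 had 28 and 7 counts against 25 and 112, or 4.71-fold (95% interval, 3.03 to 7.58). CG8708 was close to the limits of the rule, and in NelfA*/+ replicate 1 it lay within the range of the controls, with tgy just above them. C1GalTA, the family's most counted gene in these heads, had between 2314 and 2565 counts in all 4 libraries. Of the 9 family genes tested, edgeR called 0, with 2 at an unadjusted p below 0.05, and DESeq2 called 0. Those 2 were CG9109 and the member tgy, which the rule chose on this contrast. An unadjusted p below 0.05 was found for 1954 of all 9609 genes tested.

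**Figure D2:**
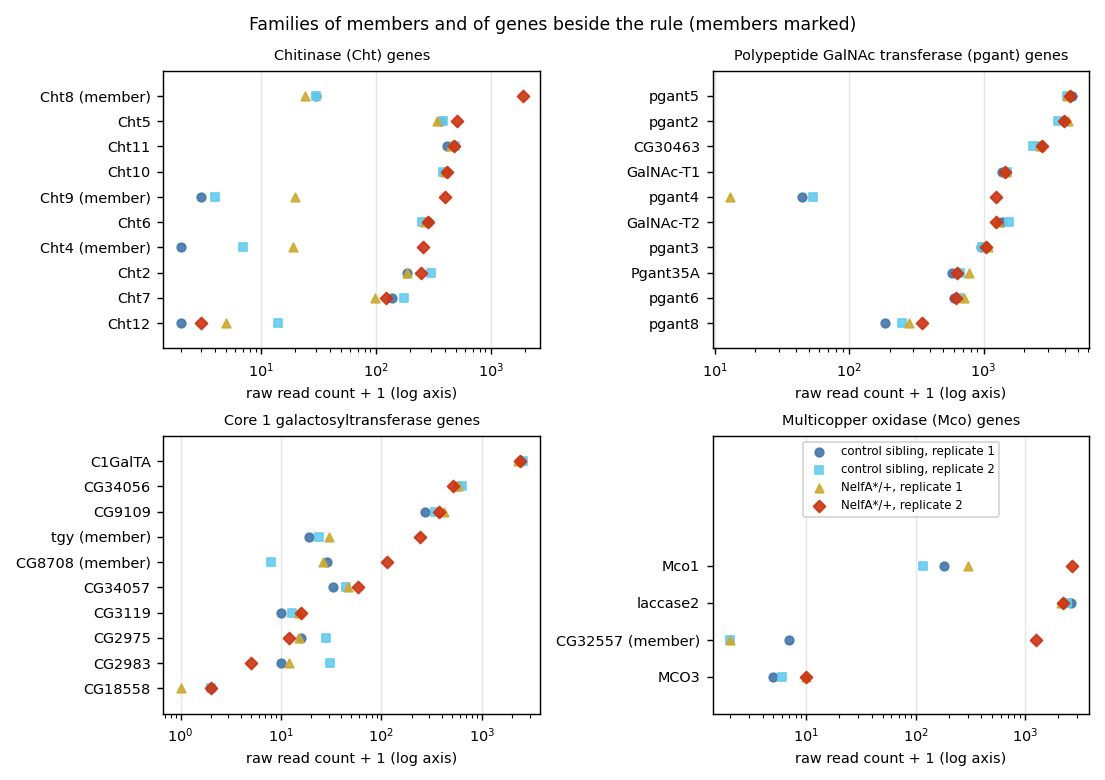
Raw read count plus 1 on log axes for the genes of 4 families in the 4 libraries, 1 point per library, with members of the rule marked and no scaling for gene length. NelfA*/+ replicate 2 (diamond) stands to the right of the other libraries for the members and for pgant4 (1237 counts) and Mco1 (2711). Among the members shown the gap is small for CG8708, with 28 and 7 counts in the controls against 25 and 112. Some other genes also differ between libraries, such as CG2983, which had 30 counts in control replicate 2 and 4 in NelfA*/+ replicate 2.

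Oxidases were represented by CG32557 and Nox. CG32557, which RefSeq names Mco4, a multicopper oxidase gene (X, 17852958 to 17856129), had 6 and 1 counts in the control siblings, 1 in NelfA*/+ replicate 1 and 1262 in replicate 2. Its ratio of 1326 rests on a single count in replicate 1, and its 95% interval runs from 238 to 52423. Nox (2R, 16307269 to 16316485), the gene of an NADPH oxidase that makes reactive oxygen species, had 8 and 13 counts in the control siblings against 35 and 148 in the NelfA*/+ libraries. Nox was the least expressed member per length of exon, at 0.523 CPM per kb in NelfA*/+ replicate 2. Of the other multicopper oxidase genes, Mco1 had 180 and 115 counts in the controls and 302 and 2711 in the NelfA*/+ libraries, whereas laccase2 had between 2133 and 2622 and MCO3 between 4 and 9. Duox, the dual oxidase gene, had 334 and 434 counts against 448 and 403.

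CG3819 and CG6839 are neighbouring genes of a family of nucleases that cut DNA and RNA without regard to sequence. They lie on 3L from 18920430 to 18922108 and from 18917581 to 18919259, on opposite strands and 1171 bases apart. CG3819 had 6 and 4 counts in the control siblings against 245 and 2764 in the NelfA*/+ libraries, an 11.9-fold difference in CPM between the latter (95% interval, 10.4 to 13.6). CG6839 had 3 and 2 counts against 75 and 1092, a 15.3-fold difference (95% interval, 12.1 to 19.6). Unlike CG14125 and CG7017, both nuclease genes were above the 2 controls in NelfA*/+ replicate 1 too.

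Kaz-m1, vanin-like and CG10405 were counted at intermediate to low levels. Kaz-m1 (3R, 26014721 to 26016487), the gene of a Kazal-type protease inhibitor, had 14 and 2 counts in the control siblings against 198 and 785 in the NelfA*/+ libraries. vanin-like, of the vanin and biotinidase family, had 0 and 0 against 9 and 115, and CG10405, which RefSeq also lists as SP155, had 12 and 11 against 26 and 198. The 3 genes differ in NelfA*/+ replicate 1, which was far above the controls for Kaz-m1 alone.

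Several of the most counted members have no function given here. CG3906 (FBgn0034871; 2R, 23511286 to 23512225) had 21 and 1 counts in the control siblings, 12 in NelfA*/+ replicate 1 and 12673 in replicate 2. For CG13947 the counts were 1 and 3 against 36 and 1732, and for CG43673 4 and 6 against 6 and 1214. NelfA*/+ replicate 1 was within the range of the controls for CG3906 and CG43673. CG11672 was almost confined to NelfA*/+ replicate 2, with 1 and 0 counts in the control siblings against 0 and 1038 in the NelfA*/+ libraries. NelfA*/+ replicate 1 was instead above both controls for whe (8 and 16 against 517 and 4038), CG15043 (12 and 7 against 225 and 1784) and CG34212 (1 and 18 against 192 and 1068). CG13323 and CG13324, neighbours on 2R 1890 bases apart with proteins of 112 amino acids each, had 7 and 5 counts against 686 and 2158, and 1 and 5 against 80 and 695. CG5399 had 25 and 27 against 700 and 2103.

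The remaining 9 genes were less counted. CG33109 had 904 counts in NelfA*/+ replicate 2 and 67 in replicate 1, CG5506 had 859 and 226, and CG45080 had 663 and 45. CG7567, CG43134 and CG13806 had 455, 430 and 245 counts in replicate 2 and at most 8 in replicate 1, and CG15153 and CG13810 had 129 and 115 against 2 and 1. For CG45061, which lay closest to the minimum, they were 102 and 19. None of the 9 had more than 26 counts in a control library, and NelfA*/+ replicate 2 was the highest library in each.

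The ratio between the NelfA*/+ libraries varied widely among the members. In CPM, replicate 2 was between 3.16-fold (CG5399) and 2195-fold (CG14125) above replicate 1 for the 32 members with counts in both, with a median of 14.6. Counting CG7017 and CG11672, which were at 0 in replicate 1, 21 of the 34 were at least 10-fold higher and 9 at least 100-fold higher. In 20 members NelfA*/+ replicate 1 had at most 30 counts, the limit set for the controls. Summed over these 20 genes, the counts were 177 and 127 in the control siblings, 211 in NelfA*/+ replicate 1 and 37332 in replicate 2. In the other 14, NelfA*/+ replicate 1 had between 35 and 700 counts, and the sums were 103 and 129 in the control siblings, 3327 in NelfA*/+ replicate 1 and 20793 in replicate 2. Among the 20, replicate 1 was above both controls in 8 genes and at or below the higher control in 12. Across the 34 members the log10 counts (plus 1) of the NelfA*/+ libraries had a Pearson correlation of 0.29, which is given as a description, since the genes share both libraries and were chosen on these counts.

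**Figure D3:**
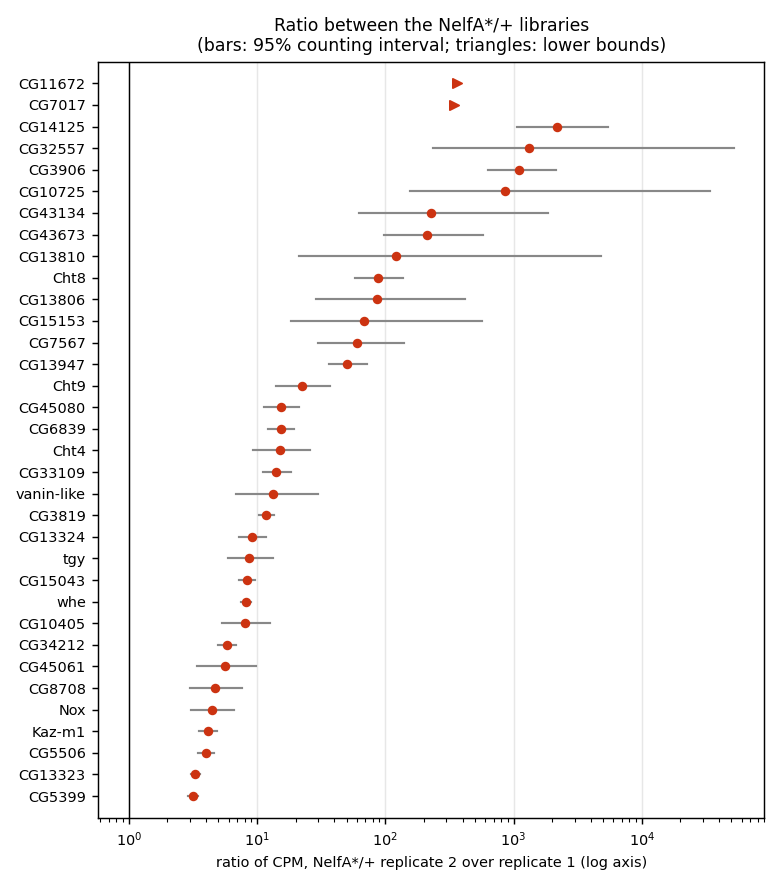
Ratio of CPM between NelfA*/+ replicate 2 and replicate 1 for each of the 34 genes on a log axis, with the exact 95% counting interval as a bar. Triangles mark the 2 genes at 0 in replicate 1, CG7017 and CG11672, at their ratio to a floor of 3 counts (346 and 364). The lower ends of their exact 95% intervals, 281 and 295, are not drawn. Ratios run from 3.16 to 2195, and the widest bars belong to genes with 1 count in replicate 1, such as CG32557 and CG10725.

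The control libraries held few reads of these genes. In both controls 5 members were at 0, and 9 had at most 3 counts over both together. The controls did not lean one way: 14 members had more counts in control replicate 1, 13 had more in replicate 2 and 7 had equal counts. In counts, the gap was widest for CG8708 with 28 and 7, followed by CG3906 with 21 and 1, CG34212 with 1 and 18, Kaz-m1 with 14 and 2 and CG14125 with 13 and 2. A count of 0 allows up to 3 counts in a library, or between 0.0664 and 0.0698 CPM at these depths.

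Per length of exon the order of the members changed. In NelfA*/+ replicate 2, CG14125 and CG3906 led with 395.5 and 347.3 CPM per kb, followed by whe with 216.4, CG13947 with 83.4, CG34212 with 69.4 and CG45080 with 55.1. The last of these has 280 bases of exon and ranked low by count. Of the chitinases, Cht8 had 30.7 CPM per kb, Cht9 8.08 and Cht4 4.09.

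By their medians, the members had fewer exons and shorter proteins than the detected protein-coding genes. Their median number of exons was 2 and their median protein 265.5 amino acids, against 4 exons and 428 amino acids over the 11411 protein-coding genes with a count in any library. Proteins under 200 amino acids were encoded by 11 members (32.4%), against 17.8% of those genes. The shortest was that of CG34212, with 48 amino acids, and the longest that of Nox, with 1340. Few exons were not particular to the members. The 118 genes that met the limits with the NelfA*/+ replicates exchanged had a median of 3 exons. Of these, 63.6% had 1 transcript, against 58.8% of the members and 44.9% of the detected protein-coding genes. By chromosome arm, 9 members lie on 2R, 8 on 3L, 8 on X, 7 on 3R and 2 on 2L, or 26.5%, 23.5%, 23.5%, 20.6% and 5.88%, where the same arms hold 20.3%, 19.5%, 15.3%, 25.6% and 18.5% of the detected protein-coding genes. These shares are descriptions and were not tested.

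Within 20 kb of another member lay 7 genes, in the 3 clusters already named: the chitinases, CG3819 with CG6839, and CG13323 with CG13324. Of 62 protein-coding neighbours that are not members, 26 had at least 100 counts in NelfA*/+ replicate 2, and 1 of them also had at least 3 times the count of replicate 1. This was lcs, 5023 bases from whe on X, with 31 and 92 counts in the control siblings against 717 and 8310 in the NelfA*/+ libraries. Below that count, CG6933 beside CG7017 (7 and 0 counts in the controls against 0 and 69) and CG44142 beside CG45080 (0 and 0 against 0 and 73) were also highest in NelfA*/+ replicate 2. CG10140 and CG10154, on either side of CG10725, had at most 13 counts in any library. Reads that HTSeq-count found ambiguous between genes are in no gene's count, and 6 members overlap another gene: Cht8, CG6839, CG5506, Kaz-m1, Cht9 and Nox.

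The limit on the controls kept out some of the most counted genes of the same kind. Beside the 34 members, 14 genes had at least 100 counts in NelfA*/+ replicate 2 and at least 3 times those of replicate 1, but more than 30 in a control library. Muc68D (3L, 11767299 to 11772157), a mucin gene, had 65 and 3 counts in the control siblings, 18 in NelfA*/+ replicate 1 and 41996 in replicate 2, more than any member. pgant4 (2L, 3472603 to 3475338), a polypeptide GalNAc transferase gene, had 44 and 53 counts against 12 and 1237. In both genes NelfA*/+ replicate 1 did not exceed the higher control, nor did it for CG14125. Of the 19 mucin and mucin-related genes in the table, 4 were highest in NelfA*/+ replicate 2 and 5 in NelfA*/+ replicate 1. The latter include Mur18B, with 39 and 2 counts in the controls against 7914 and 1827, and Mur29B, with 2 and 1 against 480 and 395. Of the 10 polypeptide GalNAc transferase genes in the table, pgant4 was the only one with such a gap, and each of the others had NelfA*/+ replicate 2 within 1.5 times NelfA*/+ replicate 1. Cda9, a chitin deacetylase gene, had 41 and 58 counts against 53 and 211. Of these families, edgeR called 1 of 11 mucin and mucin-related genes tested (Mur29B, higher), 0 of 10 polypeptide GalNAc transferase genes, 0 of 5 chitin deacetylase genes, 0 of 2 chitin synthase genes, 0 of 2 multicopper oxidase genes and 0 of 2 NADPH and dual oxidase genes. At an unadjusted p below 0.05 there were 5, 2, 2, 1, 1 and 1 genes in these families, and DESeq2 called 4, 0, 1, 0, 0 and 1. Over all 9609 genes tested, 1954 had an unadjusted p below 0.05, edgeR called 180 and DESeq2 called 833. The 5 mucin genes were Muc68D, Muc68E, Mur18B and Mur29B, higher in NelfA*/+ heads, and Muc30E, lower. The others were pgant3, pgant8, CS-2, Mco1 and Nox, all higher, and serp and verm, both lower. Neither pgant4 nor Cda9 was among them. Nox is a member and was chosen on this contrast, so nothing is read from it.

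Akh (3L, 4141467 to 4142070) also fell outside the rule through its control counts. It encodes adipokinetic hormone, which is made by the corpora cardiaca, an endocrine gland that lies beside the proventriculus. Akh had 90 and 752 counts in control replicates 1 and 2, and 756 and 3088 in NelfA*/+ replicates 1 and 2. The control libraries themselves differed by several fold, and NelfA*/+ replicate 2 was the highest. Control replicate 2 was close to NelfA*/+ replicate 1 for Akh. The members summed to 256 and 3538 counts in those libraries. The rule capped the control counts of the members and kept out Akh, so nothing is read from this difference. The other genes so kept out were CG16826 (11 and 44 counts in the control siblings against 1490 and 14426), CG15818 (56 and 48 against 227 and 4913), Ag5r (69 and 100 against 357 and 3102), Mco1, lcs, CG14075, Cyp6g2, CG12934, CG8560 and CG14356.

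**Figure D4:**
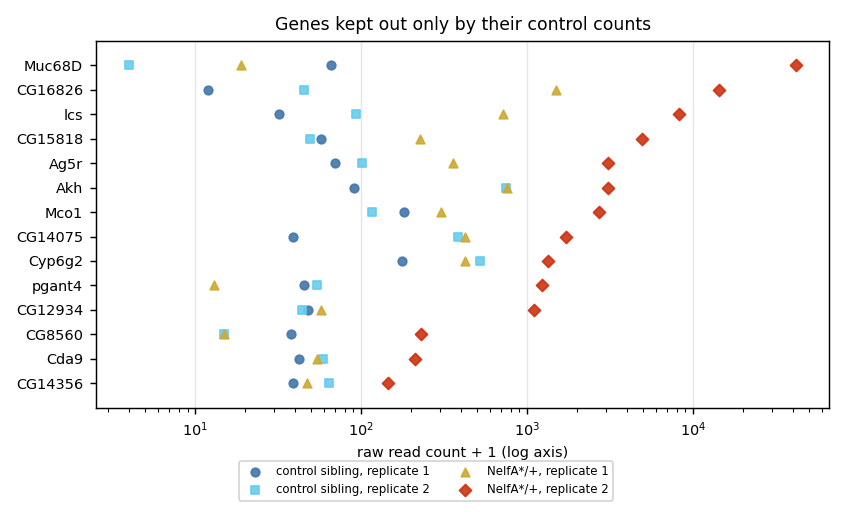
Raw read count plus 1 on a log axis in the 4 libraries for the 14 genes that met the limits on the NelfA*/+ libraries but had more than 30 counts in a control library, 1 point per library. NelfA*/+ replicate 2 (diamond) is highest for each gene, from 144 counts (CG14356) to 41996 (Muc68D).

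At the other limits the nearest genes were as follows. Just inside the minimum of 100 lay CG45061 with 102 counts and CG8708 with 112, and just outside CG9988 with 97 (1 in NelfA*/+ replicate 1, 0 in both controls) and Lcp1 with 79. At the ratio of 3, CG5399 (700 and 2103 counts in the NelfA*/+ libraries) and CG13323 were just inside, while CG30371, with 116 and 347 counts, had a raw ratio of 2.99 and CG10910, with 792 and 1223, had 1.54. At the control limit, Cht8 with 29 counts and CG8708 with 28 were inside, and CG8560 with 37 and CG16826 with 44 outside. Only a single gene thus lay between the ratios of 2 and 3.

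The mirror image of the rule held more genes. With the NelfA*/+ replicates exchanged and the same symbols left out, 118 genes met the limits. Their counts summed to 670 and 654 in the control siblings, 118716 in NelfA*/+ replicate 1 and 7387 in replicate 2, a gap between the NelfA*/+ libraries that the limits themselves set. The median protein of those 118 genes had 422 amino acids, against 265.5 for the members. A further 33 genes had at least 100 counts in NelfA*/+ replicate 2 and at most 30 in both controls without being members, of which 28 were higher in NelfA*/+ replicate 1 in CPM.

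**Figure D5:**
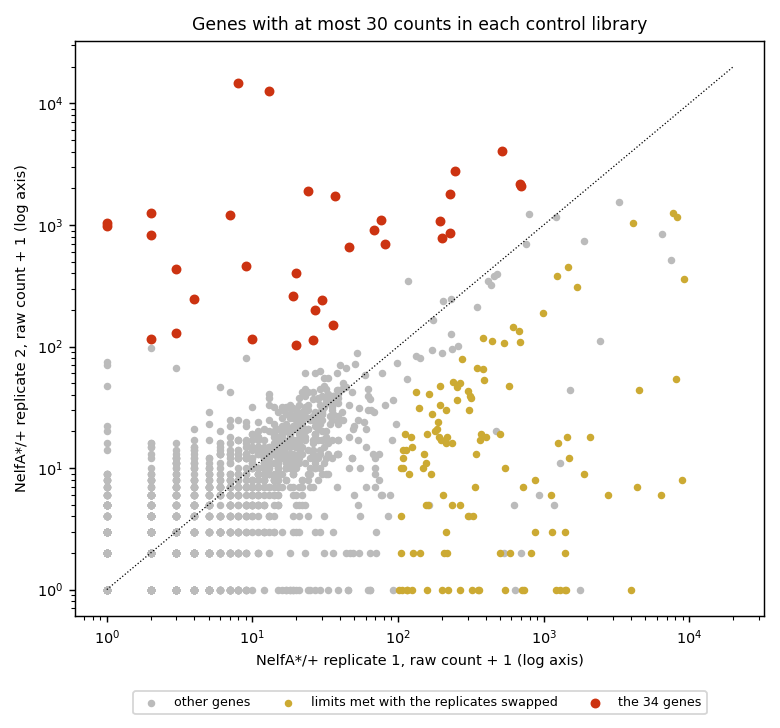
Raw count plus 1 in NelfA*/+ replicate 2 against replicate 1, both on log axes, for every gene with at most 30 counts in each control library, with the 34 members, the 118 genes that met the limits with the replicates exchanged, and all others (dotted line, equal counts). The members lie above the line and the 118 genes below it, and 9 members have at least 100 times the CPM of replicate 1 in replicate 2.

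Markers of other tissues were followed beside the members in 12 lists. Of the 34 midgut proteases, 30 had counts. Their summed level was 2.91 and 3.38 CPM in the control siblings, 825 in NelfA*/+ replicate 1 and 115 in replicate 2, and none met the rule of the members, whereas 26 were highest in NelfA*/+ replicate 1 and 1 in replicate 2. The sum for these genes, which encode digestive enzymes of the gut lumen, was thus above the controls in both NelfA*/+ libraries. It was larger in replicate 1 than in replicate 2. The opposite order in the members was set by the rule, so nothing is read from the difference. The rule also bars Jon and Try symbols by name, although none of the 37 symbols so left out met its other limits. Single genes did not all follow the sum in replicate 2: Jon74E had 45 and 39 counts in the controls and 1923 and 42 in the NelfA*/+ libraries, and zetaTry had 0 and 0 against 631 and 0. GATAe, a transcription factor gene of the midgut, had 2 and 1 counts in the controls and 98 and 72 in the NelfA*/+ libraries. The midgut list for structure and absorption, with 20 of 21 genes detected, had 371 and 405 CPM in the controls and 656 and 408 in the NelfA*/+ libraries, and the list for carbohydrate digestion, with 19 of 26, had 2001 and 1780 against 2028 and 1394. In the carbohydrate list 12 genes were highest in NelfA*/+ replicate 1 and 0 in replicate 2. Among the 12 were LManV (0 and 1 counts in the controls against 3991 and 0) and LManVI (14 and 2 against 4369 and 6). Uro, the urate oxidase gene of the Malpighian tubule, had 1 and 0 counts against 399 and 17. Its list (15 of 16 detected) had 640 and 663 CPM in the controls and 601 and 550 in the NelfA*/+ libraries. The most counted midgut proteases were yip7, with 5 and 4 counts in the controls against 8174 and 1152, and alphaTry, with 6 and 12 against 7540 and 511. LManII and Amy-p led the carbohydrate list, Alp4 and srp the list for structure and absorption, and ClC-a and Best2 the Malpighian tubule list, none of which was near 0 in the controls. The part of gut tissue in the counts of the members was not tested. Carry-over of cardia or corpora cardiaca tissue into the head pool of NelfA*/+ replicate 2 was not tested either.

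Markers of tissues away from the gut were summed in the same way, although genes that are abundant in heads carry several of the sums, such as bol with 23084 of 29654 counts of the testis list and Est-6 with 17225 of 18611 of the ejaculatory list in NelfA*/+ replicate 2. For the salivary gland (8 of 11 genes detected) they summed to 50.2 and 44.7 CPM in the controls and 52.2 and 57.9 in the NelfA*/+ libraries, with Sgs4 and Sgs5 at 0 throughout. The hemocyte list (11 of 12) had 731 and 672 CPM against 613 and 751, and the flight muscle list (9 of 12) 3024 and 3256 against 3039 and 3094. The testis list (28 of 37) ranged from 518 to 807 CPM, with both values in the controls, and its genes loopin-1 (1 and 51 counts against 6 and 0) and S-Lap2 (4 and 33 against 2 and 1) were highest in control replicate 2, and the accessory gland list (24 of 40) from 213 to 254 CPM, with Acp36DE and Acp62F at 0 in all libraries. The fat body list (10 of 11) had 6230 and 5112 CPM against 4681 and 5017, the ovary list (16 of 24) 117 and 122 against 99.8 and 89.4, and the list of the ejaculatory duct and bulb (3 of 4) 430 and 423 against 394 and 433. Their most counted genes were fkh and sage (salivary gland), crq and Hml (hemocyte), Act57B and Mhc (flight muscle), bol and alphaTub84D (testis), Spn77Ba and Obp56g (accessory gland), apolpp and Lsp2 (fat body), Yp3 and grk (ovary) and Est-6 and Gld (ejaculatory duct). NelfA*/+ replicate 2 had within 1.5 times the count of NelfA*/+ replicate 1 in each of these genes. In the head list, ninaE and Arr1 led.

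Of 9609 genes tested between the genotypes with edgeR's quasi-likelihood test, 180 (1.87%) were called at an adjusted p below 0.05, 62 (0.645%) higher and 118 (1.23%) lower in NelfA*/+ heads. Of the 34 members, 24 passed edgeR's filter on low counts, which asks for enough counts in 2 libraries, and 2 of these were called, CG13323 and CG5399, both higher. They are the members with the smallest ratios between the NelfA*/+ libraries. Since the rule used this contrast, nothing is read from the calls. The 10 members that did not pass the filter were CG32557, CG43673, CG11672, CG7017, CG10725, CG43134, CG13806, CG15153, CG13810 and vanin-like. Without NelfA*/+ replicate 1 edgeR called all 24, beside 380 of the 9609 genes, and without NelfA*/+ replicate 2 it called 12, beside 425. Without control replicate 1 or 2 it called 0 members, beside 27 and 54 genes, with 12 and 13 members at an unadjusted p below 0.05, and in each such fit a lone library is assumed to vary like the other genotype. DESeq2's Wald test called 19 of the 24, beside 833 of the 9609.

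Among the marker lists, edgeR called 3 of 13 midgut proteases tested, all higher in NelfA*/+ heads (Jon65Aiii, Phae1 and Phae2), where DESeq2 called 10, and 3 of 16 genes of midgut structure and absorption (Alp2, GATAe and Mur29B), also higher. Most proteases tested were near 0 in the controls and passed the filter through the NelfA*/+ libraries. Called lower were Amy-d of 11 carbohydrate-digestion genes, Best2 and ry of 14 Malpighian tubule genes, Spn77Ba of 4 accessory gland genes and Lsp1beta of 8 fat body genes. In the lists of testis, ovary, salivary gland, hemocyte, flight muscle and ejaculatory duct, edgeR called 0. Between 0 and 4 genes a list had an unadjusted p below 0.05, and DESeq2 called between 0 and 2. Over all 9609 genes tested, 1954 had an unadjusted p below 0.05 and DESeq2 called 833. The count over all 12 lists was 11 of 112 genes tested in edgeR, and it was 34 without NelfA*/+ replicate 2, 22 without NelfA*/+ replicate 1, and 4 and 6 without control replicates 1 and 2.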

How the data were processed

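Per the labels, RNA of pooled D50 fly heads was enriched with oligo-dT beads and sequenced on an Illumina instrument. Reads were trimmed by the authors (Trim Galore), mapped to the BDGP6 genome (STAR 2.5) and assigned to genes by HTSeq-count, whose mode and strand setting are not given in the sources used here. The deposited counts are raw and whole. HTSeq-count's summary lines were not used as genes (ambiguous reads, between 7.47% and 8.00% of each library). A second deposited table holds the authors' own comparison (fold changes and p-values) and was not used.

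The members, the gene lists and the families were chosen with earlier results of these data known. The rule was applied to raw counts. Genotypes were compared with edgeR (4.0.16, R 4.3.3, with filterByExpr, TMM, glmQLFit and glmQLFTest). The p-values were adjusted after Benjamini and Hochberg across every tested gene. The steps were checked on simulated counts with the same dispersion for every gene and changes only in well-counted genes. That check does not cover genes that are high in a single library, as the members are. Alternatives were DESeq2 (1.42.0), other scalings, no filter on low counts, a replicate block, each library left out, and other limits of the rule. CPM are relative to the total counts on genes. Gene positions, exon lengths (all exons merged) and protein lengths (longest coding sequence) are those of the Ensembl annotation of BDGP6. Of 13926 symbols, 13870 matched it, 12783 directly and 1087 by a RefSeq synonym, with all 34 members among them. By rule the text names Nelf-A, the 12 most counted members, members with a name or near another member, the genes nearest each limit, and for each list its 2 most counted and its called genes. The other members, the genes outside the control limit alone, the neighbours, the families, GATAe, Uro, Jon74E, zetaTry, LManV, LManVI, elav, loopin-1, S-Lap2 and the markers at 0 were named after their values were seen. Chitinase and galactosyltransferase genes have related copies, and their counts are uncertain where reads match more than 1 of them. No sequences are shown.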

Additional observations from a re-analysis of the deposited data

How the results depend on the processing

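Under the other limits tried, the rule found between 27 and 39 genes, and 34 with the excluded symbols kept. With a control limit of 50, a minimum of 50, a ratio of 2 or TMM-scaled counts all 34 members were kept, and with a control limit of 20, a minimum of 200 or a ratio of 5 27, 27 and 28 of them were kept. On raw or TMM-scaled counts all 64 ratios of the 32 members with counts in both NelfA*/+ libraries lay inside their counting intervals. Each scaling multiplies every ratio by the same factor, so the 64 are not separate checks. The rule needs all 4 libraries and could not be applied with one left out. The counts of calls moved more. DESeq2's Wald test called 833 genes, 19 members and 31 genes of the marker lists, where edgeR called 180, 2 and 11. With library size alone edgeR called 257 of 9609 genes, 4 members and 17 list genes. Without the filter on low counts it called 82 of 11463 genes, 0 of 34 members and 6 list genes. In that fit 26 members had an unadjusted p below 0.05, beside 1980 of the 11463 genes. The labels do not say that replicate numbers mark a shared batch, and deviations of same-numbered libraries had a correlation of -0.13 over 8365 genes. With the replicate block edgeR called 297 genes (155 higher and 142 lower), 15 members and 23 list genes, and with crossed replicate numbers, added after this correlation was seen, 797, 16 and 30. Leaving out 1 library gave between 27 and 425 genes, between 0 and 24 members and between 4 and 34 list genes. The causes were not tested. With 2 libraries a genotype the members rest on 1 library, and 10 of the 34 had too few counts elsewhere to pass edgeR's filter.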
